A study of Homo sapiens with 1 sample.

Results

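The TAGLN-positive intermediate cells are 1008 of the 13736 quality-filtered cells (7.34%, exact 95% binomial interval 6.91 to 7.79%) of a single-cell library of H9-derived neural progenitors. They were chosen by measured values. A cell was a member when TAGLN took at least 10 of every 10000 of its UMIs (unique molecular identifiers, each standing for a counted RNA molecule) and the sum of ANXA1, TFPI2 and CTGF stayed below 5 per 10000. They were set beside 10639 TAGLN-low cells, with TAGLN below 5 per 10000, and 1497 contractile cells, with the 3-gene sum at 5 or more. In 46 cells, TAGLN was below 5 and the 3-gene sum was at 5 or more, so they count in both comparison groups. Another 638 cells lay between the TAGLN limits and count in none.

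The study asked how HAR123, a human accelerated region, acts in the generation of neural progenitor cells (NPCs), and grew human embryonic stem cells with the human, chimpanzee, mouse or no HAR123 side by side. Only the hHAR123 library is described here, from the H9 line with the genotype label WT. All of its cells had received SB431542 at 10 μM together with Dorsomorphin at 1 μM and Rock inhibitor over 2 days, then both SB431542 and Dorsomorphin over 5 days in rotating culture, and had been replated on Matrigel for 7 days. Cells of independent clones had been pooled, and were taken ahead of rosette selection. Capture aimed at 20000 cells, 10000 from each loading well. With 1 library there is no replicate, so no difference was tested, and the intervals cover counting error only.

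TAGLN encodes transgelin, an actin-binding protein of smooth muscle that many other cells make when they build actin stress fibres. The contractile gene set, which also includes smooth muscle actin, calponin, myosin light chain and tropomyosin, is a textbook target of SRF (serum response factor), whose coactivators are freed when actin polymerizes, while YAP and TEAD carry signals of tension and spreading to genes such as CTGF and CYR61. Neural progenitors of the early forebrain are instead known by SOX2, PAX6, HES5, LHX2 and FABP7. Selenoprotein P (SELENOP) carries selenium out of cells, and RGS5 is a brake on G protein signalling that is best known from pericytes.

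In brief, the TAGLN-positive intermediate cells had actomyosin RNA that, as a share of all RNA, was nearer to contractile than to TAGLN-low cells, forebrain progenitor RNA below the TAGLN-low level, and RNA of SPP1, GREM1 and S100A10 far below the contractile level. Of 22 smooth muscle and actomyosin genes with enough RNA to compare, 19 were at least 2-fold above the TAGLN-low level, beside 2.54% of all 8061 genes compared, and of 16 neural progenitor genes 4 were at least 2-fold below it, beside 2.51%. TAGLN, by which the cells were chosen, belongs to the same contractile gene set. The rule thus favours higher actomyosin RNA, and the first count is no independent sign of a contractile program. At like depth, in cells of 20000 to 30000 UMIs, 18 of the 22 were higher and 2 of the 16 lower, beside 187 and 170 of all 8052 genes. These levels are shares of a cell's RNA. Counted per cell, the median of the actomyosin list was 3.92 times the TAGLN-low and 0.438 times the contractile level. On that scale 17 of 23 actomyosin genes were at least 2-fold below contractile cells, beside 1657 of all 7902 genes compared. Per cell, the medians of the progenitor and forebrain lists turn to 1.04 and 1.05 times the TAGLN-low level. Of the 16 progenitor genes, 2 were then 2-fold higher and 2 lower, beside 1054 and 46 of all 8061 genes. The marker SELENOP was 2.76-fold above TAGLN-low cells, and its order against contractile cells depended on depth. RGS5 was 8.77-fold above TAGLN-low cells, while 10 of 15 pericyte and mural genes were below 1 CPM, as were 9 in TAGLN-low and 10 in contractile cells.

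SRF is known to bind a short element called the CArG box, and such boxes before actin-cytoskeleton genes are shown here because actomyosin genes were among those most raised in these cells. RefSeq sequences were searched for the box in the 250 bases before each listed transcription start (GRCh38.p14). The form searched was CC, then only A or T bases, then GG, 10 bases in all. Boxes of other forms were not searched, so a gene without a match can still hold such a box. The form searched is symmetric, so that a match on 1 strand is a match on the other, although the letters of a given box may differ between strands. It was found for 394 of all 27305 genes in that table (1.44%), and for 8 of the 25 smooth muscle and actomyosin genes that could be matched, namely ACTG1, ACTG2, ACTN1, CNN2, FLNA, MYLK, SMTN and TPM4. The list has 29 genes, and TAGLN and MYL9 were among those not matched and not searched. The stretches below give the box in capitals with 10 bases on either side.
ACTG1 (chr17:81512874-81512903, minus strand): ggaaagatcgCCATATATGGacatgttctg
CNN2 (chr19:1026509-1026538, plus strand): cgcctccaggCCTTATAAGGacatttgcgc
FLNA (chrX:154374709-154374738, minus strand): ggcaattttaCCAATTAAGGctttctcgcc
TPM4 (chr19:16067355-16067384, plus strand): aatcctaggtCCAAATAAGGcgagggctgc
ACTN1 (chr14:68977718-68977747, minus strand): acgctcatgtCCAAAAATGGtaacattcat
MYLK (chr3:123620623-123620652, minus strand): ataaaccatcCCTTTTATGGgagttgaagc
A gene was counted as having a box when any of its listed starts had a match. Of the 20 matched genes with enough RNA, 5 of 6 with a box and 12 of 14 without one were at least 2-fold higher in the TAGLN-positive intermediate cells than in TAGLN-low cells. MYLK, with a box before a listed start, was lower at 0.677-fold, and which start its UMIs came from was not tested. Among all genes 2-fold higher in these cells, 14 of 162 matched genes had a box (8.64%), beside 3 of 144 matched genes that were 2-fold lower (2.08%) and 101 of 6441 matched genes compared (1.57%). The cells were chosen by TAGLN, a gene of the contractile set that SRF is known to drive. That choice favours genes with a box among those raised, so these shares are no independent sign of SRF. Whether SRF acts in these cells was not tested. A match is a run of letters, not a site shown to be bound.

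The 1008 cells had a median of 26081 UMIs (quartiles 19680 and 35250) and 6576 detected genes, between the TAGLN-low cells with 16350 UMIs and the contractile cells with 48483 UMIs. The median mitochondrial share was 5.30%, beside 5.15% and 5.20%. Levels are therefore given as summed UMIs of a group per 1000000 of its UMIs (CPM), with an exact 95% Poisson interval. Depth itself differed between the groups, and whether RNA per cell or capture differed cannot be told apart. The 2 measures used to choose the cells are shown in the plot of cells by TAGLN and the 3-gene sum. Median TAGLN was 19.8 per 10000 in the TAGLN-positive intermediate cells, ranging from 10.0 to 137, and 43.7 in contractile cells. The median 3-gene sum was 1.07 and 19.4.

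**Figure D1:**
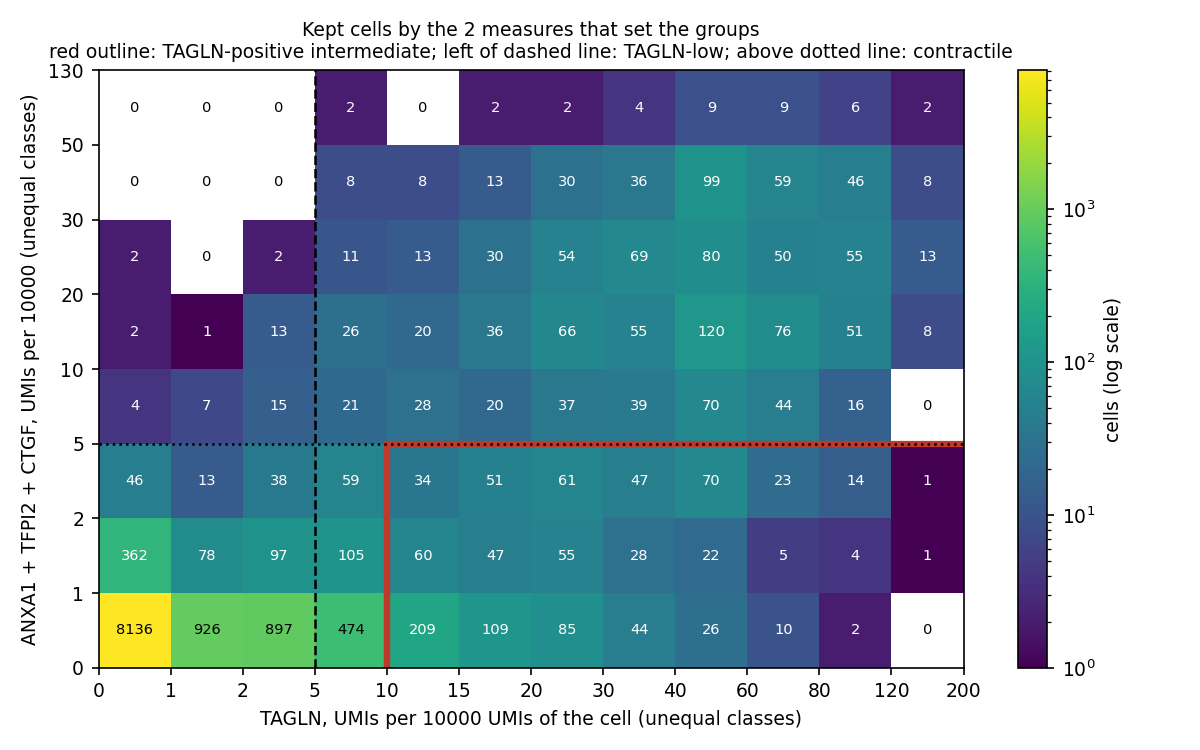
Number of cells in each class of TAGLN level (horizontal, UMIs per 10000) and of the summed level of ANXA1, TFPI2 and CTGF (vertical, UMIs per 10000); classes are unequal in width and the colour scale is logarithmic. The red outline holds the 1008 TAGLN-positive intermediate cells, and cell numbers change gradually across both limits, with no empty class between the groups.

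The limits lie within a continuous range. The 184 cells with TAGLN from 8 to 10 per 10000 had 176 CPM of MYL9, 68.7 CPM of ACTA2 and 331 CPM of SOX2, and the 130 cells from 10 to 12 had 195, 70.3 and 349 CPM. Across the other limit, 69 cells with a 3-gene sum from 4 to 5 had 243 CPM of ACTA2 and 40.4 CPM of NPPB, and 54 cells from 5 to 6 had 252 and 45.1 CPM. Cells just inside and just outside thus had close levels of these genes. SPP1 differed, at 44.5 CPM in the cells with TAGLN from 8 to 10 and 9.73 CPM in those from 10 to 12.

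The first comparison asks what sets the cells apart from the TAGLN-low majority. Of 8061 genes at 20 CPM or more in either group, 205 were at least 2-fold higher (2.54%) and 202 at least 2-fold lower (2.51%) in the TAGLN-positive intermediate cells. The median ratio of all compared genes was 0.971. Counted as UMIs per cell instead, the median gene shifts by 0.61 on the log2 scale and the calls become 1054 higher and 46 lower, because a TAGLN-positive intermediate cell held 1.57 times the UMIs of a TAGLN-low cell on average. All ratios below are in CPM unless stated.

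The actomyosin genes were raised together, which the choice of cells by TAGLN, a gene of the same contractile set, favours. ACTA2, smooth muscle actin, stood at 175 CPM (170 to 180) against 14.3 CPM (13.8 to 14.8) in TAGLN-low cells, a ratio of 12.2. CNN1, calponin, stood at 68.7 CPM (65.7 to 71.8) against 5.01 CPM, and MYL9, the regulatory myosin light chain, at 346 CPM against 30.4 CPM. The tropomyosin genes TPM1 and TPM2 were 6.08-fold and 4.17-fold higher, and CALD1, caldesmon, was 4.47-fold higher. The general cytoskeletal genes were less raised, with ACTB at 2.04-fold, ACTG1 at 2.13-fold, FLNA at 2.15-fold and VCL, vinculin, at 2.39-fold. Of the 19 genes past 2-fold, 3 were compared only because of their level in the TAGLN-positive intermediate cells, ACTA2 and CNN1 among them, and among the 19 genes at 20 CPM or more in TAGLN-low cells themselves 16 were past 2-fold. The median ratio over the 22 genes compared was 2.50, and 19 were past 2-fold under each of the CPM scalings and 21 per cell. CNN3 (1.61-fold) and MYH10 (1.60-fold) stayed below the limit, and MYLK, myosin light chain kinase, was the lone gene below 1 and turns to 1.06 per cell.

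**Figure D2:**
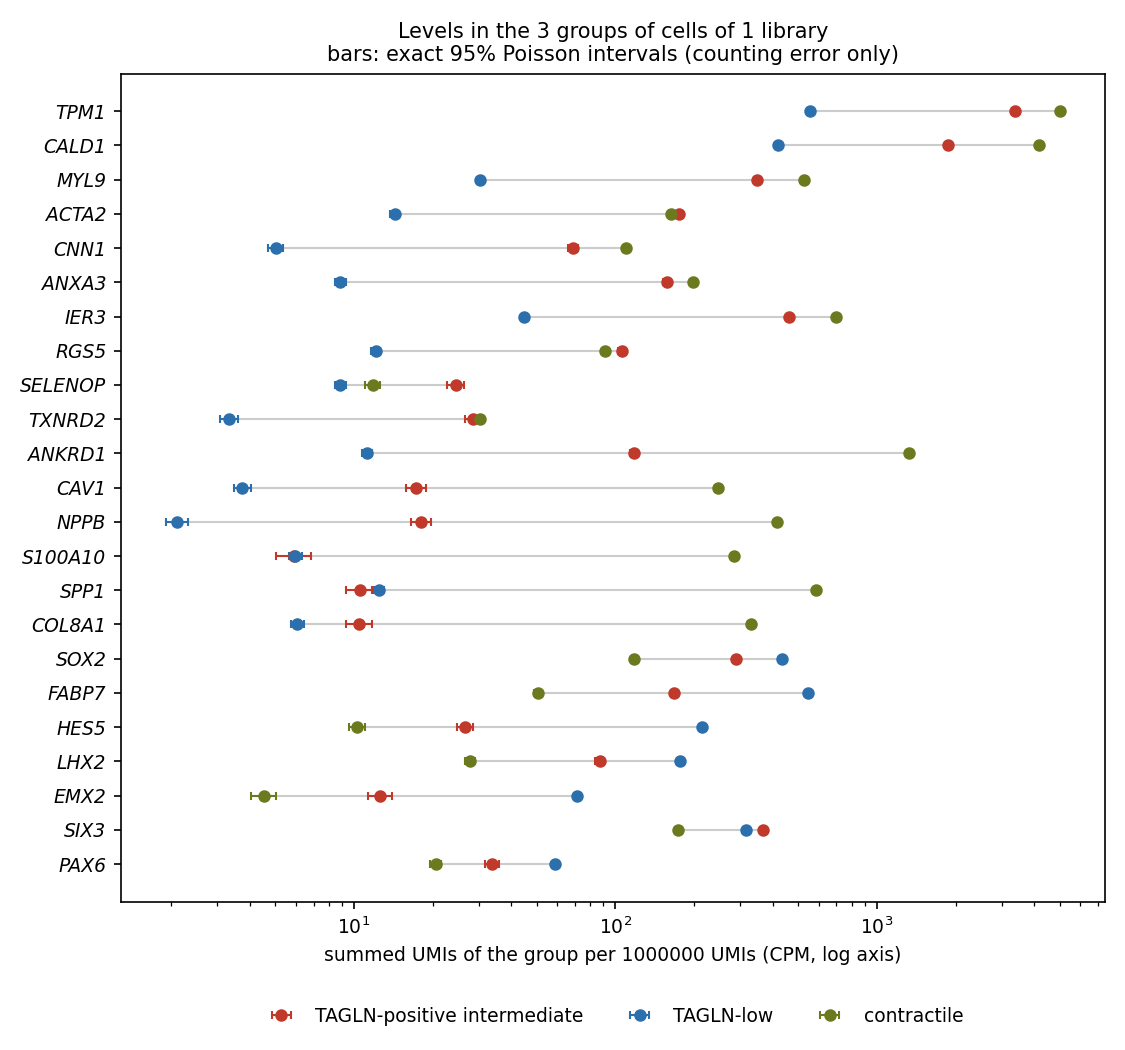
Summed UMIs per 1000000 (CPM, log axis) of 23 genes in the TAGLN-positive intermediate, TAGLN-low and contractile cells of the same library, with exact 95% Poisson intervals. Actomyosin genes of the intermediate cells lie nearer to contractile cells, S100A10, SPP1 and COL8A1 nearer to TAGLN-low cells, and the progenitor genes SOX2, FABP7, HES5, LHX2, EMX2 and PAX6 between both.

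RNA of the tension-responsive pathway was raised in part. Of 15 YAP and TEAD genes compared, 8 were past 2-fold, beside 2.54% of all 8061 genes, and none was 2-fold lower, beside 2.51%. But 5 of the 8, among them TEAD3, TEAD4 and ANKRD1, were compared only because of their level in the TAGLN-positive intermediate cells. Of the 10 genes at 20 CPM or more in TAGLN-low cells themselves, 3 were past 2-fold. CYR61, a matricellular target of YAP, stood at 161 CPM against 27.2 CPM in TAGLN-low cells, and ANKRD1, another target, at 118 CPM against 11.2 CPM. AMOT and AMOTL2, angiomotins that hold YAP at junctions, were 3.52-fold and 2.77-fold higher, and the factors TEAD3 and TEAD4 2.06-fold and 2.54-fold. YAP1 itself was at 109 CPM against 120 CPM, a ratio of 0.905 that turns to above 1 per cell. SRF was at 25.02 CPM against 14.1 CPM, a ratio of 1.78, and its coactivators MKL1 and MKL2 had ratios of 0.902 and 0.770, which also turn to above 1 per cell. No gene of the SRF list reached 2-fold on the CPM scale.

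The early-response genes were raised in part. IER3, ATF3, MYC and JUN were past 2-fold, ATF3 and MYC being compared only because of their level in the TAGLN-positive intermediate cells, while 11 genes of the immediate early list reached 20 CPM in some group and 6 of them in the groups compared here. IER3 was at 459 CPM against 44.8 CPM. The stress response genes ATF4 (1.54-fold) and HSPA5 (1.51-fold) were less raised, and DDIT4 (0.38-fold) and TXNIP (0.434-fold) of the same list were lower.

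Among genes at 50 CPM or more in either group, the 8 genes with the highest ratios to TAGLN-low cells were ANXA3, AC016766.1, CNN1, ACTC1, CYTOR, ACTA2, MYL9 and ANKRD1. ANXA3, an annexin, stood at 157 CPM against 8.86 CPM, a ratio of 17.7. AC016766.1, a long noncoding RNA gene (GRCh38 chr2:163743913-164352223, minus strand, GENCODE 44), stood at 1431 CPM against 91.8 CPM and 3951 CPM in contractile cells. ACTC1, cardiac actin, stood at 56.7 CPM against 4.35 CPM. Among the genes with the lowest ratios were HES5, EMX2, KCNQ3, AC022639.1, EYA4, KCNH8, LINC01830, EMX2OS and TOX.

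Matrix, signalling and other structural genes were raised in part. Of 18 matrix and adhesion genes 3 were past 2-fold against TAGLN-low cells, and of 13 TGF-beta and BMP genes 3, with none 2-fold lower in either list. Of all 8061 genes compared, 2.54% were 2-fold higher and 2.51% lower. In each list 1 of the 3 was compared only because of its level in the TAGLN-positive intermediate cells. COL11A1, a fibrillar collagen, was at 581 CPM against 163 CPM, and LTBP1, which holds latent TGF-beta in the matrix, at 815 CPM against 363 CPM and 523 CPM in contractile cells, an order against the latter that turns per cell. ID1, a BMP target, was at 123 CPM against 41.4 CPM. VIM, vimentin, was at 1719 CPM against 781 CPM and KRT18, a keratin of simple epithelia, at 211 CPM against 62.4 CPM. Of the 10 epithelial and surface ectoderm genes 5 were below 1 CPM, as were 5 in TAGLN-low and 4 in contractile cells. Of the 4 compared with TAGLN-low cells, 3 were past 2-fold and none was 2-fold lower. Of the 3, 1 was compared only because of its level in the TAGLN-positive intermediate cells. The list summed to 456 CPM, beside 171 CPM in TAGLN-low and 849 CPM in contractile cells. EPCAM, an epithelial adhesion gene too low to be compared, was at 3.42 CPM against 5.12 CPM. THBS1, thrombospondin, was at 52.4 CPM against 5.52 CPM.

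The remaining lists differed in how many genes could be compared and how many were past 2-fold. Their counts stand beside 2.54% of all 8061 genes 2-fold higher and 2.51% lower. Of 8 stress and unfolded protein genes compared with TAGLN-low cells, 1 was past 2-fold, having entered by its level in the TAGLN-positive intermediate cells, and 2 were 2-fold lower. Of the 16 contractile cell leaders, a list picked from contractile cells of this library, 5 were compared and 4 were past 2-fold. Of 18 crest and mesenchyme genes, 3 were compared and 2 were past 2-fold. Of these, 2 of the 4 and 1 of the 2 were compared only because of their level in the TAGLN-positive intermediate cells. No compared gene of either list was 2-fold lower, and most genes of both lists were too low to be compared. None of 6 cell cycle exit genes, 5 pluripotent genes, 2 G protein coupled receptor genes and 5 genes chosen for the study's topic was 2-fold higher or lower. Of 4 neuron genes 1 was higher, again entered by its level in these cells, and 2 were lower, and of 8 genes that led clusters of the whole library 4 were lower.

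The forebrain progenitor program was lower but present. HES5, a Notch target of dividing progenitors, was at 26.7 CPM against 214 CPM, a ratio of 0.125 (0.116 to 0.134). EMX2, a factor of the dorsal forebrain, was at 12.6 CPM against 71.1 CPM, and FABP7, the brain fatty acid-binding protein of radial glia, at 168 CPM against 546 CPM. LHX2 and OTX2, further forebrain factors, had ratios of 0.491 and 0.481. SOX2, the general progenitor factor, was at 288 CPM against 433 CPM and PAX6 at 33.7 CPM against 58.5 CPM. The median ratio over 16 neural progenitor genes was 0.661 and over 10 forebrain genes 0.666, and both turn to slightly above 1 (1.04 and 1.05) when UMIs are counted per cell. SOX2 turns with them, while HES5, EMX2, FABP7, LHX2 and OTX2 stay below 1.

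Not all anterior genes were lower. SIX3, a factor of the most anterior neural plate, was at 367 CPM against 315 CPM, VAX1 was 1.86-fold higher and FZD5, a WNT receptor of the eye field, 1.29-fold higher. NES, nestin, was at 412 CPM against 212 CPM, and HES1 at 132 CPM against 106 CPM. The neuron genes NEUROG2, EOMES and NEUROD1 had no UMI among 28974377 UMIs, which allows up to 0.104 CPM each, and the stem cell gene POU5F1 was near 0.

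SOX2 RNA was found with MYL9 or ACTA2 RNA under the same barcodes, but SOX2 does not stand for the whole progenitor program. To compare shares across depths, each cell was thinned at random to 5000 UMIs, which left out 15 TAGLN-low cells, 1 contractile cell and no TAGLN-positive intermediate cell. After thinning, SOX2 and MYL9 were found together in 53.6% of the TAGLN-positive intermediate cells (50.4 to 56.7%), beside 9.76% of TAGLN-low cells and 37.8% of contractile cells. Without thinning, the shares were 94.9%, 29.2% and 92.1%. SOX2 and ACTA2 were found together in 30.9%, 4.68% and 17.9% of thinned cells. PAX6 by itself was found in 15.3%, 24.5% and 7.82% of thinned cells. TAGLN-low cells have SOX2 RNA of their own, so their joint share is no measure of free RNA, and the part of free RNA in these shares was not tested. Scrublet, which scores barcodes that could hold a pair of cells, marked 2.28% of the TAGLN-positive intermediate cells, 1.23% of TAGLN-low cells and 2.34% of contractile cells, and without them 208 genes were 2-fold higher and 208 lower than in TAGLN-low cells.

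The second comparison asks what the cells lacked of the contractile state. Of 7902 genes compared with contractile cells, 293 were at least 2-fold higher (3.71%) and 370 at least 2-fold lower (4.68%) in the TAGLN-positive intermediate cells. The median ratio of all compared genes was 1.09. With median-of-ratios size factors the calls are 225 and 439, so that higher genes make up 33.9% of all calls in place of 44.2%, and per cell they are 65 and 1657, with a shift of -0.70 on the log2 scale. In cells of 20000 to 30000 UMIs only, a setting chosen after seeing the data with 364 TAGLN-positive intermediate and 151 contractile cells, 164 genes were 2-fold higher and 223 lower.

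Among the genes with the lowest ratios to contractile cells were GREM1, SPP1, S100A10, MARCH4, IL11, COL8A1, CAV2, MFAP5 and CDH13. SPP1, osteopontin, was at 10.5 CPM in the TAGLN-positive intermediate cells, 12.4 CPM in TAGLN-low cells and 583 CPM in contractile cells. S100A10, a partner of annexin, was at 5.87, 5.96 and 283 CPM. GREM1, a secreted BMP antagonist, was at 2.80, 2.39 and 161 CPM. The TAGLN-low levels of these 3 genes rest in part on the 46 cells that count in both comparison groups. Without those cells they were 7.53 CPM for SPP1, 3.33 CPM for S100A10 and 1.36 CPM for GREM1, so that the ratios of the TAGLN-positive intermediate cells went from 0.843 to 1.39, from 0.984 to 1.76 and from 1.17 to 2.06. COL8A1 went from 1.72 to 4.84 times the TAGLN-low level. S100A11 and ANXA2 lay between both groups, with S100A11 at 93.4 CPM, 30.2 CPM in TAGLN-low and 576 CPM in contractile cells, and ANXA2 at 108, 24.0 and 542 CPM. S100A6 was at 39.45 CPM against 30.45 CPM in TAGLN-low cells. NPPB, a natriuretic peptide, was at 18.02 CPM, above the 2.10 CPM of TAGLN-low cells but 0.0435 times the 414 CPM of contractile cells.

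As a share of RNA, many progenitor genes were higher than in contractile cells. Of 15 neural progenitor genes, 6 were at least 2-fold higher and none 2-fold lower, with a median ratio of 1.64 that turns to 0.929 per cell. Of 9 forebrain genes 8 were higher and 1 lower, with a median of 2.33. Of all 7902 genes compared, 3.71% were higher and 4.68% lower. Per cell, 1 of the 15 neural progenitor genes was 2-fold higher and 3 were 2-fold lower, beside 65 and 1657 of all 7902 genes. Of the 9 forebrain genes, 2 were higher per cell and 1 lower, with a median of 1.32. Of the genes 2-fold higher on the CPM scale, 2 of the 6 and 1 of the 8 were compared only because of their level in the TAGLN-positive intermediate cells. At like depth, in cells of 20000 to 30000 UMIs, 3 of the 15 neural progenitor genes were 2-fold higher and 1 lower, with a median of 1.44. Of the 9 forebrain genes 4 were higher and 1 lower there, with a median of 1.68. Of all 7848 genes compared at that depth, 164 were higher and 223 lower. SOX2 was 2.46-fold and FABP7 3.33-fold the contractile level. Among genes at 50 CPM or more in either group, the highest ratio belonged to EPHA7, an ephrin receptor, at 220 CPM beside 155 CPM in TAGLN-low and 32.2 CPM in contractile cells. PAX7, a factor of dorsal neural cells, followed at 73.9, 54.0 and 11.1 CPM.

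To place each gene between both groups, a position was computed that is 0 at the TAGLN-low level and 1 at the contractile level, over the 694 of 8321 genes (8.34%) that were at least 2-fold higher in contractile cells. The median position of the TAGLN-positive intermediate cells was 0.309 (quartiles 0.125 and 0.479). Of the 694 genes, 628 lay between 0 and 1 (90.5%), 52 below 0 and 14 above 1. The genes were chosen by the difference between contractile and TAGLN-low cells in the same data. By rule, the TAGLN-positive intermediate cells were above TAGLN-low cells in TAGLN and below contractile cells in the sum of ANXA1, TFPI2 and CTGF. These choices favour a high share between 0 and 1, which is thus no independent sign of an intermediate state. The share over genes not chosen in this way was not tested. Positions were spread widely by gene group. Of all 694 genes, 22.8% lay above 0.5 and 22.2% below 0.1. The 20 smooth muscle and actomyosin genes had a median of 0.637, with 14 above 0.5, and the 9 YAP and TEAD genes a median of 0.728. From UMIs per cell these medians were 0.357 and 0.392. The 14 contractile cell leaders, a list picked from contractile cells of this library, had a median of 0.0504, with 8 below 0.1, and the 13 matrix and adhesion genes a median of 0.181.

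**Figure D3:**
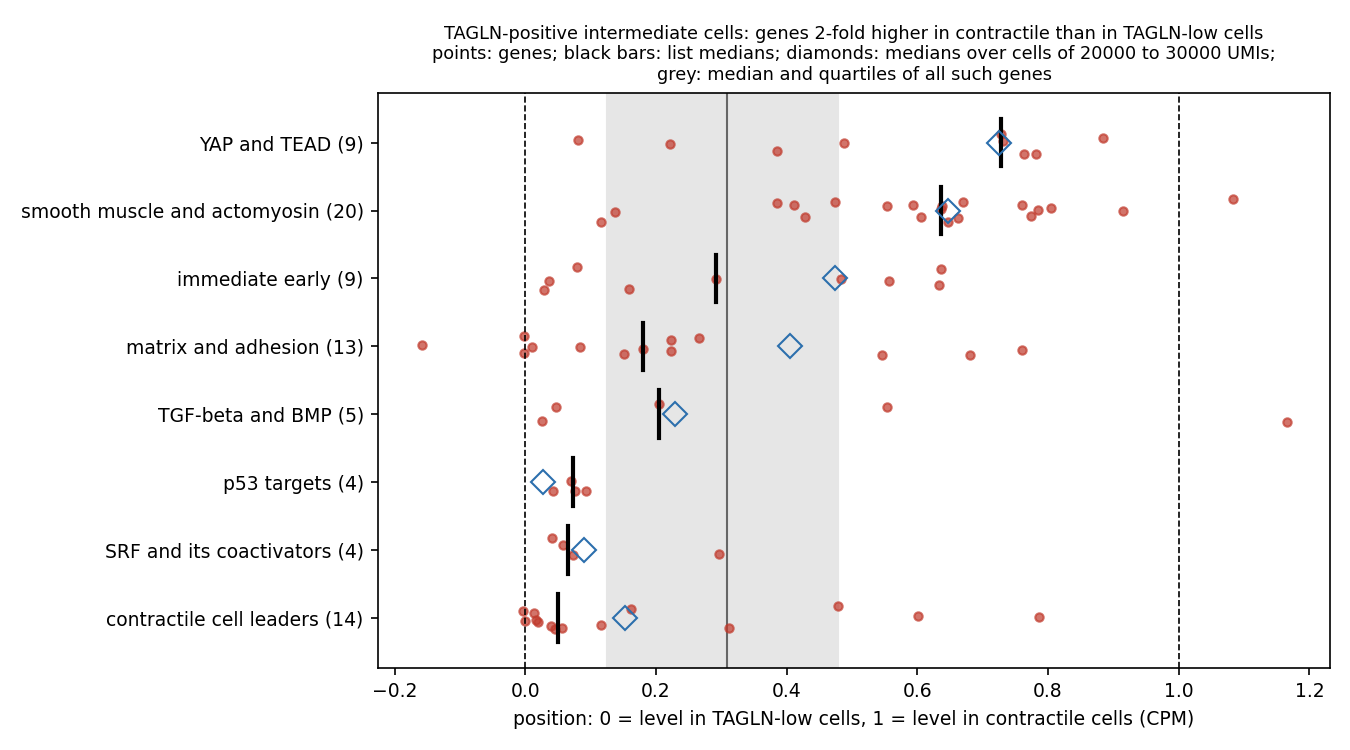
Position of each gene's level in the TAGLN-positive intermediate cells between TAGLN-low cells (0) and contractile cells (1), one row a gene list with its number of genes; points are genes, black bars list medians, blue diamonds list medians over cells of 20000 to 30000 UMIs, and the grey band the quartiles of all 694 genes. The YAP and actomyosin medians lie at 0.728 and 0.637, right of the grey band, and the leader, SRF and p53 target medians left of it.

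In cells of 20000 to 30000 UMIs the median position of all such genes was 0.390 over 557 genes, and those of the actomyosin and YAP lists were 0.647 and 0.725. The contractile cell leaders came to 0.153 there. The genes were chosen anew in these cells, so the matrix and adhesion list, at 0.181 over 13 genes and 0.405 over 8, was not compared over the same genes. ACTA2 went from a position above 1, with 162 CPM in contractile cells, to a ratio of 0.579 to contractile cells.

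Of 26 p53 targets, 12 were compared with TAGLN-low cells and none of these was 2-fold higher or lower. CDKN1A, the cell cycle inhibitor p21, was below the limit for that comparison. It was at 9.87 CPM against 6.76 CPM in TAGLN-low and 47.9 CPM in contractile cells. Without the 46 cells that count in both comparison groups, its TAGLN-low level was 5.18 CPM, and the ratio went from 1.46 to 1.91. None of 11 S phase and 13 mitosis genes differed 2-fold from either group, with median ratios to TAGLN-low cells of 0.960 and 1.15, of which the first turns to above 1 per cell. In cells of 20000 to 30000 UMIs the mitosis median was 0.649 against TAGLN-low and 2.07 against contractile cells. There 8 genes were 2-fold above contractile cells, beside 164 of all 7848 genes, so depth and cell cycle RNA moved together. The part of the cell cycle in the other differences was not tested. On thinned cells, 23.4% of the TAGLN-positive intermediate cells were called G1 (20.8 to 26.2%), 33.9% S and 42.7% G2M. In TAGLN-low cells the shares were 28.7%, 39.0% and 32.4%, and in contractile cells 25.9%, 28.3% and 45.9%. Phase calls read RNA levels only. Among G1-called cells alone, 264 genes were 2-fold higher and 230 lower than in TAGLN-low cells.

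The markers SELENOP and RGS5 were looked at in more detail. SELENOP (ENSG00000250722, chr5:42799880-42887392, minus strand) was at 24.4 CPM in the TAGLN-positive intermediate cells, 8.86 CPM in TAGLN-low and 11.8 CPM in contractile cells. A SELENOP UMI was found in 9.92% of thinned cells (8.15 to 11.9%), beside 3.75% and 6.08%, and in 38.8%, 11.7% and 26.3% of unthinned cells with median depths of 26081, 16350 and 48483 UMIs. In cells of 20000 to 30000 UMIs, SELENOP was at 26.99 CPM in TAGLN-positive intermediate cells, 10.3 CPM in TAGLN-low and 31.2 CPM in contractile cells, so that the ratio to contractile cells went from 2.07 to 0.867 (0.694 to 1.09). In deeper cells it was higher than in contractile cells, at 26.0 against 20.1 CPM from 30000 to 40000 UMIs and 21.1 against 11.9 CPM from 40000 to 60000 UMIs. The order of SELENOP against contractile cells thus differed between depth classes, while it was above TAGLN-low cells in each class, with overlapping intervals at 60000 UMIs or more. Within the cells it did not follow TAGLN, with a ratio of 0.846 between the 252 cells with most and the 252 cells with least TAGLN. Of 17 selenoprotein and antioxidant genes compared with TAGLN-low cells, 2 were past 2-fold, SELENOP and TXNRD2, and the median ratio was 1.125. Both were compared only because of their level in the TAGLN-positive intermediate cells. None of the 14 genes at 20 CPM or more in TAGLN-low cells themselves was past 2-fold. TXNRD2, a mitochondrial thioredoxin reductase, was at 28.5 CPM against 3.32 CPM and at 30.3 CPM in contractile cells.

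RGS5 (ENSG00000143248, chr1:163111121-163321791, minus strand) was at 106 CPM against 12.1 CPM in TAGLN-low and 91.1 CPM in contractile cells. After thinning it was found in 35.6% of cells (32.7 to 38.7%), 4.40% and 33.1%. In cells of 20000 to 30000 UMIs it was at 110, 14.0 and 140 CPM, so its direction against contractile cells turned there, as it does per cell. Of 6 RGS genes compared with TAGLN-low cells, RGS5 was the 1 past 2-fold, itself entered by its level in the TAGLN-positive intermediate cells, and the median ratio was 0.766, which turns to 1.203 per cell. RGS9 was at 18.26 CPM against 3.52 CPM, just under the limit for a comparison. The other pericyte markers were sparse in each group. Of 15 genes in that list, 10 were below 1 CPM, beside 9 in TAGLN-low and 10 in contractile cells. KCNJ8 and FOXF2 had no UMI and CSPG4 was at 0.173 CPM. PDGFRB was at 5.45 CPM against 2.38 CPM in TAGLN-low cells, and MCAM, an adhesion gene of mural cells, at 12.9 CPM against 5.73 CPM. Their sum of 178 CPM was mostly RGS5 and NOTCH3, beside 80.8 CPM in TAGLN-low and 186 CPM in contractile cells. Of the endothelial list, 6 of 9 genes were below 1 CPM, with PECAM1 at 0.345 CPM, but the list summed to 45.2 CPM beside 21.3 CPM in TAGLN-low and 34.3 CPM in contractile cells. KDR, a VEGF receptor, was at 27.1 CPM, 13.2 and 16.9 CPM, and at 30.1, 13.6 and 13.4 CPM in cells of 20000 to 30000 UMIs, an order against contractile cells that turns per cell. TEK, the angiopoietin receptor, was at 13.1, 2.20 and 11.7 CPM. The part of endothelial RNA in the other differences was not tested. Of the cardiac list, 5 of 10 genes were below 1 CPM, beside 8 in TAGLN-low and 6 in contractile cells, with MYH6 and HAND2 at no UMI. The list summed to 72.3 CPM, mostly ACTC1, beside 8.15 CPM in TAGLN-low and 435 CPM in contractile cells, and its part in the other differences was not tested. For the label's term progenitor, the 16 neural progenitor genes were set as markers. SOX2, 1 of these, was found in 98.8% of the cells without thinning and in 74.3% with it. The shares were 98.4% and 85.4% in TAGLN-low cells and 92.6% and 43.1% in contractile cells. The unthinned share thus hardly separates the groups. Of the 16 neural progenitor genes, 4 were above the TAGLN-low level and 4 at least 2-fold below it, and the median ratio was 0.661.

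Some genes were higher than in both other groups. A gene low in both of these could enter only by a level of 20 CPM or more in the TAGLN-positive intermediate cells, as FGF19, FGF18 and SELENOP did, so that such a gene had to be higher. Among the 7526 genes at 20 CPM or more in the TAGLN-positive intermediate cells, whatever their level elsewhere, 11 were at least 2-fold above both TAGLN-low and contractile cells (0.146%). At least 1.5-fold above both were 40 (0.531%). FGF19, a secreted fibroblast growth factor, was at 32.3 CPM, 5.88 CPM in TAGLN-low and 5.30 CPM in contractile cells, and FGF18, of the same family, at 20.1, 6.80 and 5.63 CPM. PTPRT, a receptor phosphatase, was at 199, 60.7 and 46.8 CPM. DLX5, a homeobox factor, was at 81.6, 15.7 and 42.1 CPM. In cells of 20000 to 30000 UMIs, 3 of the 11 genes, FGF18, FGF19 and FAM19A2, stayed 2-fold above both groups, and 12 of the 40 stayed 1.5-fold above both, while 39 of the 40 stayed 1.5-fold above TAGLN-low cells. DLX5 was at 79.0 CPM there, beside 82.4 CPM in contractile cells.

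**Figure D4:**
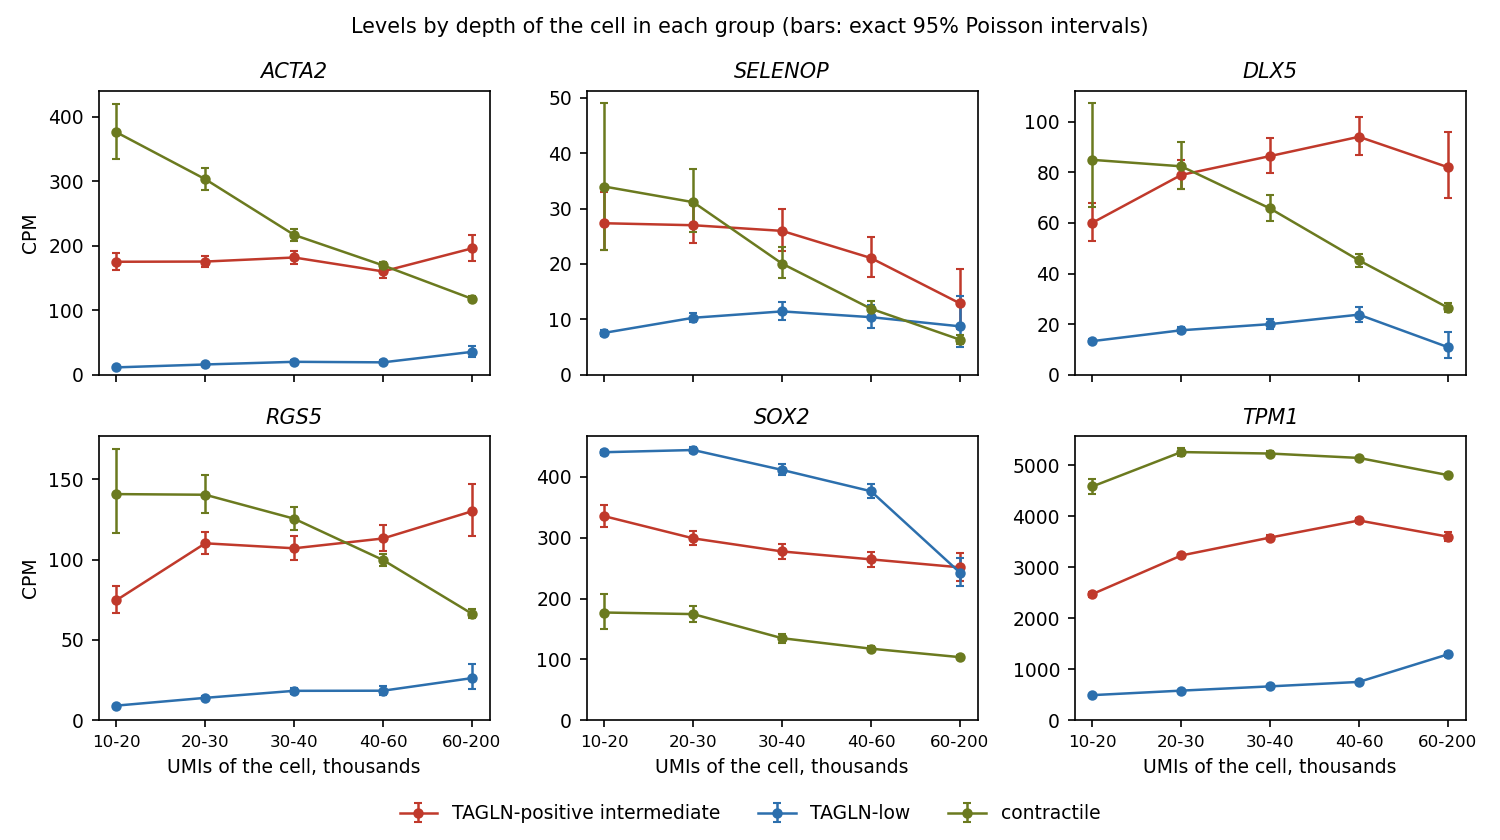
Summed UMIs per 1000000 (CPM) of 6 genes by the number of UMIs of the cell, in TAGLN-positive intermediate, TAGLN-low and contractile cells, with exact 95% Poisson intervals. In contractile cells ACTA2, SELENOP, DLX5 and RGS5 are lower in deeper cells, so their order against the TAGLN-positive intermediate cells depends on depth, while TPM1 and SOX2 keep the same order in the classes up to 60000 UMIs.

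For ACTA2, the level of contractile cells changed with depth more than that of the TAGLN-positive intermediate cells. It went from 303 CPM in contractile cells of 20000 to 30000 UMIs to 118 CPM in those of 60000 or more, while it stayed between 160 and 196 CPM in all depth classes of the TAGLN-positive intermediate cells. The median 3-gene sum of those contractile cells also rose from 10.6 to 22.9 per 10000, so depth and the 3-gene sum moved together, and their parts cannot be told apart. TPM1 was lower in TAGLN-positive intermediate than in contractile cells in every depth class, and SOX2 was higher.

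Along the range of TAGLN, among cells with a 3-gene sum below 5, actomyosin genes were higher and several progenitor genes lower at higher TAGLN. MYL9 was at 21.7 CPM in 9561 cells with TAGLN below 2 per 10000, 150.6 CPM from 5 to 10, 307 CPM from 15 to 25 and 538 CPM at 40 or more. Over the same classes FABP7 was at 579, 270.0, 184 and 89.9 CPM, and EMX2 at 76.7, 26.1, 14.0 and 5.3 CPM. Other progenitor genes did not follow this. NES was at 207, 265, 362 and 606 CPM over these classes, higher with TAGLN, and SIX3 at 306, 401, 374 and 324 CPM. HES5 was lower from the first step on, going from 236 CPM below 2 to 66.9 CPM from 2 to 5 and 25.3 CPM from 10 to 15, and was at 31.7 CPM at 40 or more. DLX5 was already at 35.9 CPM from 2 to 5, beside 12.8 CPM below 2, and reached 95.7 CPM from 25 to 40. TAGLN set these classes and its own level is not a result.

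Along the 3-gene sum, among cells with TAGLN at 10 or more, SPP1 and NPPB were higher in the upper classes and FGF19 lower. SPP1 was at 7.8 CPM below 1 per 10000, 15.5 CPM from 2 to 5, 105 CPM from 5 to 10 and 771 CPM at 20 or more. NPPB was at 7.1, 36.2, 118.5 and 594 CPM in these classes. DLX5 was at 71.6, 90.1, 82.5 and 24.5 CPM, and FGF19 at 32.7, 31.0, 19.4 and 1.3 CPM. SOX2 was at 332, 243, 180 and 90.1 CPM. The actomyosin gene TPM1 changed less, from 2721 to 5475 CPM.

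**Figure D5:**
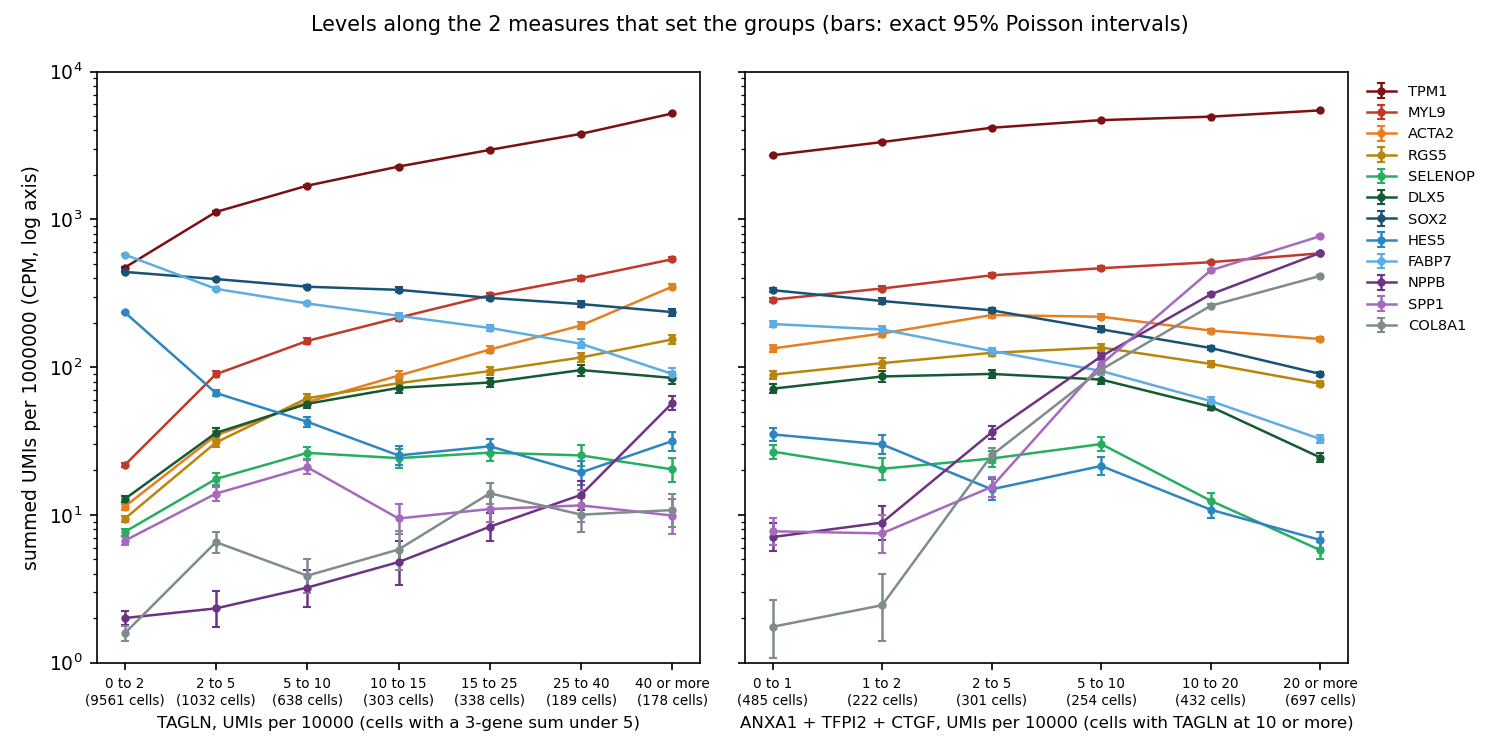
Summed UMIs per 1000000 (CPM, log axis) of 12 genes in classes of cells along TAGLN (left) and along the summed level of ANXA1, TFPI2 and CTGF (right), with exact 95% Poisson intervals and the number of cells under each class. On the left, TPM1, MYL9 and ACTA2 increase and FABP7 and SOX2 decrease, while HES5 is lowest at 25 to 40 and higher again, at 31.7 CPM, at 40 or more; on the right, NPPB, SPP1 and COL8A1 increase and DLX5 decreases in the highest classes.

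The cells also varied among themselves. Among the TAGLN-positive intermediate cells, the genes most like TAGLN, by the ratio between the 252 cells with most and the 252 with least TAGLN, were ACTC1 (6.61-fold), ERBB4, EDN1, ANKRD1, PHLDA1, ACTA2 (3.94-fold), AHNAK, CNN1, CRIM1 and GPC4 (3.12-fold). Clustering of the 1008 cells without the genes of the rule gave 4 clusters. Cluster 1, with 391 cells, had 59.3% of cells called G1 and was led by PNRC1. Cluster 2, with 277 cells, was led by histone genes, and cluster 3, with 230 cells, by mitotic genes, with 93.9% called G2M. Cluster 4, with 110 cells, was led by PI15 and AL118516.1. ACTA2 was at 191, 172, 160 and 182 CPM in clusters 1 to 4, and MYL9 at 345, 312, 359 and 409 CPM. SELENOP was at 38.4 CPM in cluster 1 and between 17.6 and 19.3 CPM in the others. AC016766.1 was at 410 CPM in cluster 4 and between 1454 and 1724 CPM in the others.

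The nearest neighbours by expression profile were of several kinds. With the rule genes left out, 51.0% of the 20 nearest neighbours of a TAGLN-positive intermediate cell were of the same kind, 23.9% TAGLN-low, 11.3% contractile and 13.8% between the limits, where these kinds made up 7.34%, 77.1%, 10.9% and 4.64% of kept cells. Of the TAGLN-positive intermediate cells, 53.4% had no contractile neighbour and 30.5% no TAGLN-low neighbour. Over 10 of the 20 neighbours were of the same kind for 52.9% of them and TAGLN-low for 18.2%. For neighbours, the 46 cells that meet both comparison limits counted as contractile only, which left 10593 TAGLN-low cells. TAGLN-low and contractile cells had 95.2% and 87.8% neighbours of their own kind. TAGLN-low cells had 0.144% contractile neighbours and 1.78% TAGLN-positive intermediate neighbours.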

How the data were processed

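The authors deposited raw counts, the number of UMIs per gene and cell barcode, of 14726 barcodes and 33538 genes (327640709 UMIs in all). The counts had been made by Cell Ranger 7.0.1 at default settings with GRCh38, and the submitters also list Seurat 4.4.0. The annotation version and the strand used in counting are not given in the sources used here. Barcodes carried a single suffix and give no loading well.

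Barcodes with 2000 to 10000 genes and a mitochondrial share of at least 0.01 and below 0.1 were kept. The rule for the groups and the gene lists were chosen with earlier results of these data known, and every gene difference between groups is a description. CPM is the summed UMIs of a gene per 1000000 UMIs of a group. Genes at 20 CPM or more in either group were compared, without TAGLN, ANXA1, TFPI2 and CTGF, and called at a ratio of 2. Genes above both groups were counted among those at 20 CPM or more in the TAGLN-positive intermediate cells. Levels carry exact Poisson, ratios exact conditional and shares exact (Clopper-Pearson) binomial intervals, at 95%. A count of 0 was given the limit of 3 counts. PCR copies were removed by UMI counting, and intervals cover counting error only. Named genes were those of 29 lists (GPX1 was not listed in the file), and, per comparison, the 20 highest and 10 lowest ratios at 50 CPM or more, the 15 highest above both groups and the 10 most like TAGLN. Genes picked for depth classes were chosen after their values were seen. The matrix lists overlapping genes separately, and without a known strand their reads cannot be told apart.

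Phases were scored with scanpy 1.11.5 from 43 S and 54 G2M genes. Clusters and neighbours used 2000 variable genes, 30 components, 20 neighbours and leidenalg 0.10.2 at resolution 0.5. Scrublet marked 222 barcodes above 0.402, and none was removed from the main values. Intervals came from scipy 1.17.1, tables from pandas 2.3.3, components from scikit-learn 1.9.0 and figures from matplotlib 3.10.9, under Python 3.11.15 with numpy 2.4.6. The ratio and call steps were tested on simulated data. Results for a few genes and 1 gene list that the naming rule would include are not reported here.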

Additional observations from a re-analysis of the deposited data

Results flagged for a closer look

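The quality filter removed 990 barcodes, and 80 of them (8.08%, exact 95% binomial interval 6.46 to 9.96%) also met the TAGLN and 3-gene limits, a share close to that among kept cells. They stand outside the main comparisons of the report. Some enter the alternative without the lower mitochondrial limit, which held 1044 TAGLN-positive intermediate cells in place of 1008. Of the 80, 54 had under 0.01 mitochondrial share, 31 had fewer than 2000 genes, 14 had a share of 0.1 or more and 5 had more than 10000 genes, and a barcode can fail several limits. Their median depth was 8754 UMIs and their median TAGLN level 32.1 per 10000.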

How the results depend on the processing

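No paired analysis was possible because the series holds 1 library here and no replicate, so leaving out a replicate was not possible either. Of 85 alternatives computed for the summary values, 63 stayed close and 22 moved. Of 1384 alternatives computed for 173 ratios of named genes, 675 lay within the counting interval of the main ratio, 707 outside it, and in 2 a ratio past 2-fold turned. Counting every ratio, the direction turned for 18 per cell, 8 in cells of 20000 to 30000 UMIs, 4 in G1-called cells, 3 with the mean of per-cell CPM and 2 with median-of-ratios size factors. With TAGLN at 20 or more per 10000 the share of kept cells was 3.63% and 320 genes were 2-fold lower than in TAGLN-low cells, and with TAGLN at 5 or more the values were 11.98% and 123. With a 3-gene sum below 2 the share was 5.15%, and 85.6% of genes lay between the other groups. On thinned cells these were 8.20% and 92.7%. Counting UMIs per cell gave 1054 higher and 46 lower than TAGLN-low, 65 higher and 1657 lower than contractile cells, and 98.9% between. The mean of per-cell CPM gave 92.66% between. Without a limit on low counts the values were 2058, 6826, 4721, 4379 and 58.1%. Cells of 20000 to 30000 UMIs, a setting chosen after seeing the data like that without Scrublet-marked barcodes, gave 164 higher and 223 lower than contractile cells and 95.7% between. There SELENOP turned to 0.867 and TOX to 1.83 times the contractile level. In part these counts changed by construction (other cells, scale or genes). For depth, whose classes also differed in the 3-gene sum, the cause was not tested. Genes near 20 CPM rest on few UMIs in the smaller groups, which limits their ratios.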
